A study of Mus musculus with 4 samples.

Results

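The genes described here are 40 genes of DNA replication and S phase, followed on 4 one-colour Agilent arrays of mouse kidney. They were taken from a fixed list of symbols, which was chosen with earlier results of these data known. Each had at least 1 probe under that gene name on the array. All 40 were well above background on at least 1 array, out of 17230 named genes that were. The list falls into origin licensing (11 genes), origin firing (4), fork and synthesis (11), nucleotide supply (5), cyclin E and E2F factors (6), and chromatin assembly and DNA methylation (3). Mice were 8 weeks old on the C57BL/6 background, either wild type (WT) or NLRC5-/-, which lack the NOD-like receptor gene Nlrc5 and are called knockout below. In both genotypes 1 kidney sample came from a sham operation and 1 from bilateral renal ischemia of 30 min followed by reperfusion. The sample titles and the series design put the reperfusion at 48 h, while the sample descriptions put both sham and injured kidneys at 24 h, and which time holds is not settled by the labels. Each group therefore held 1 array, and no animal-to-animal spread could be measured.

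Replication starts in G1, when the origin recognition complex, Cdc6 and Cdt1 load the MCM helicase onto origins, and continues in S phase, when Cdc45 and the GINS complex turn the loaded helicase into a moving fork. Polymerases alpha, delta and epsilon then copy the DNA around the sliding clamp Pcna, ribonucleotide reductase and thymidylate synthase supply the nucleotides, and chromatin assembly factor rebuilds nucleosomes behind the fork. The genes for these proteins are known targets of E2F transcription factors, which are held back by RB and released by cyclin-dependent kinases. In the healthy adult kidney few tubule cells divide, and surviving tubule cells are known to enter the cell cycle in the days after ischemia.

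Values are log2 processed signals minus the 75th percentile of the array, so that 0 is a bright probe and negative values are dimmer ones. Where 4 values stand together, their order is sham wild type, sham knockout, injured wild type and injured knockout, and a pair of differences after injury gives wild type first. The 75th percentile of the signal ran from 181.7 in wild type injured to 465.4 in knockout sham, and 67.3% to 74.6% of probes were well above background. Repeated spots of 1 probe differed between arrays with an SD of 0.13 to 0.17 on the log2 scale, and this technical noise leaves out the spread between animals. Both wild type arrays came from 1 slide and scan and both knockout arrays from another, so genotype cannot be told apart from slide, while sham and injured arrays were compared within a slide. Nlrc5 itself read -4.08 and -3.77 on the sham arrays of wild type and knockout, and -3.34 and -3.62 on the injured arrays. It was thus not lower on the knockout sham array, and as the deleted stretch is not given in the sources used here, this probe does not check the labels. Xist, transcribed from the inactive X chromosome of females, read 5.20 on the knockout sham array and fell short of the background criterion on the other 3, so sex and operation cannot be told apart in the knockout injury comparison.

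After ischemia and reperfusion the replication genes were higher as a group in both genotypes. In wild type kidneys 35 of 40 were at least 2-fold higher after injury, against 14.6% of all genes, and 0 were at least 2-fold lower, against 15.1%. No gene of the 40 was lower by any amount, against 50.7% of all genes. Their median difference was 1.89 on the log2 scale, where the median of all 16527 genes was -0.01. In knockout kidneys 26 of 39 were at least 2-fold higher (4.93% of all genes) and 0 were lower by that size (4.21%), with a median of 1.41 against 0.02 for all 16880 genes. With dim probes set to their background bounds, 34 genes were at least 2-fold higher in wild type (14.4% of all genes) and 25 in knockout (4.44%). The same 26 genes were at least 2-fold higher in wild type too, so 26 of 39 passed in both genotypes, against 2.58% of all genes. At 4-fold 19 genes were higher in wild type (4.98% of all genes) and 13 in knockout (1.69%). At 4-fold in both genotypes there were 12 by their brightest probes, against 0.779% of all genes: Mcm3, Gins1, Pole, Rrm2, Tk1, Ccne1, Ccne2, E2f1, E2f7, E2f8, Uhrf1 and Chaf1b. Second probes of Mcm3, Gins1, Ccne1 and E2f1, above background on all 4 arrays, fell short of 4-fold in knockout. They gave 1.88, 1.23, -0.22 and 1.16 there. Rfc4 stood just inside the 2-fold line at 1.004 in wild type and 1.09 in knockout, while Gmnn at 0.99 in wild type and Lig1 at 0.91 in knockout stood just outside it.

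**Figure D1:**
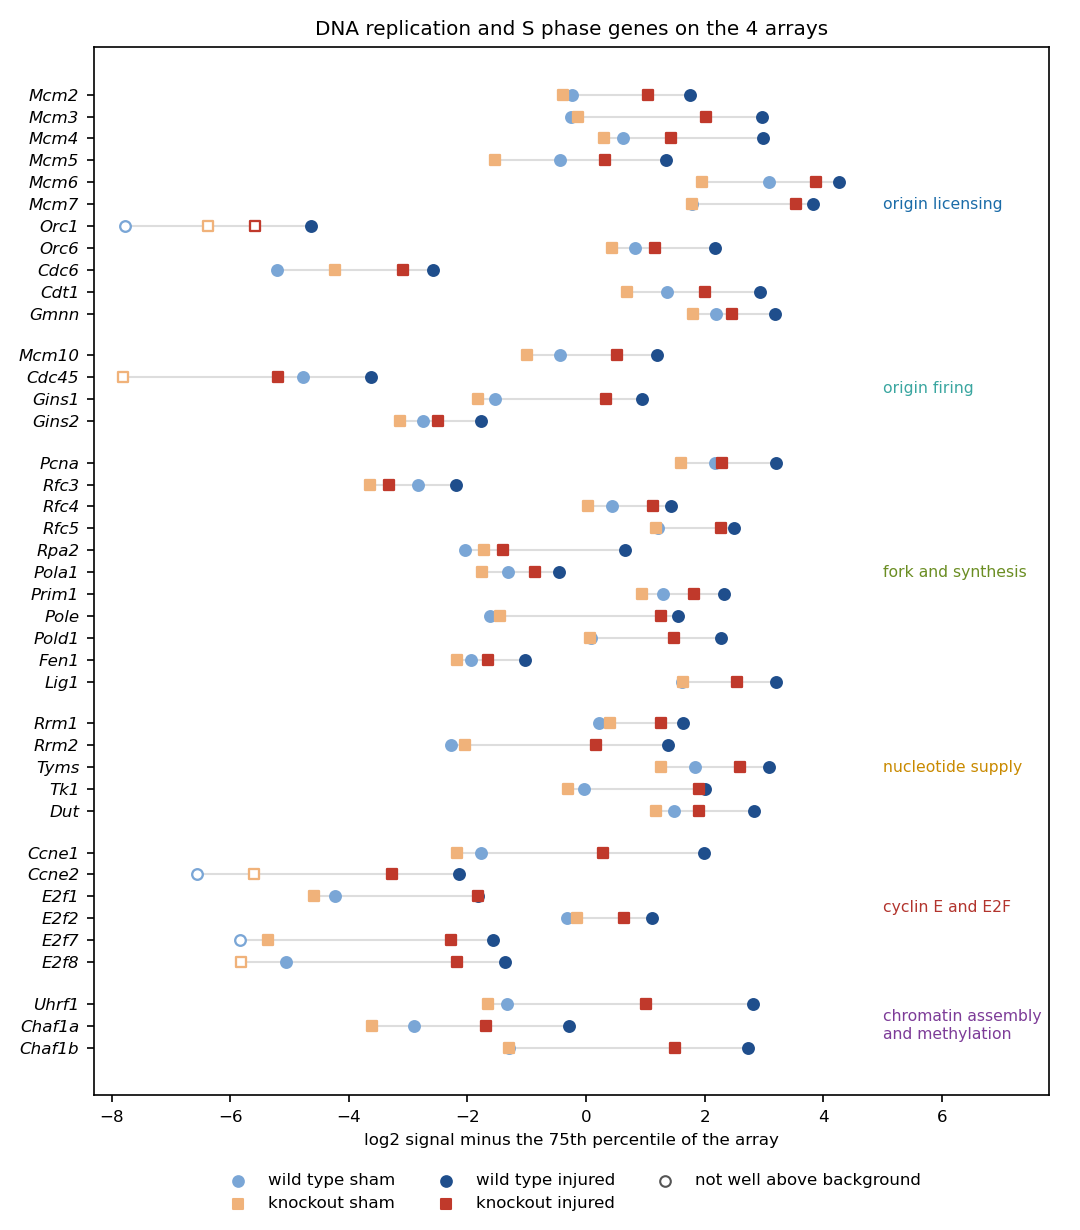
Log2 signal minus the 75th percentile of the array (horizontal axis) of each of the 40 genes on the 4 arrays, 1 array per group and 1 point per array, grouped by role. Open symbols were not well above background. The wild type injured array is the highest point for 39 genes, and in 38 genes both injured arrays lie above both sham arrays.

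The arrays kept 1 order for most of the 40 genes. Both injured arrays lay above both sham arrays for 38 of 40, against 26.7% of all genes, and the exceptions were Cdc45 and Rfc3, whose knockout injured value lay below wild type sham. The wild type injured array was the highest of the 4 for 39 of 40 genes (30.8% of all genes), E2f1 being the exception by its brightest probe but not by its other one. The knockout sham array was the lowest for 29 of 40 (14.1% of all genes). For 37 of 40 the order was wild type injured, then knockout injured, then both sham arrays, against 18% of all genes. Signals not well above background entered these orders as measured. Set against the wild type sham array, which had the male pattern that the knockout injured array also had, 19 genes were at least 2-fold higher in knockout injured (9.96% of all genes) and the median was 0.96. That pair of arrays differed in genotype, slide and scan as well as operation.

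Promoter sequences are shown because E2F factors are the known regulators of this gene set, and the stretches below hold the E2F words that lie before the start of a gene. The RefSeq windows (GRCm38.p6, 250 bases before to 50 after the start) covered 34 of the 40 genes. They were searched on both strands for the 8-letter words TTTCCCGC, TTTGGCGC, TTTCGCGC and TTTGCCGC, which can overlap each other. Words are in capitals, each stretch runs 5′ to 3′ on the strand of the gene, and GCGGGAAA, GCGCCAAA and GCGCGAAA are the reverse complements of the first 3 words. E2f7 and Uhrf1 stand for the role groups with the largest median difference and Rfc3 and Pola1 for the one with the smallest. The licensing genes were added after their share of words had been seen. Mcm3, Cdt1, Pold1, Lig1 and E2f2 hold words only after the start, and Mcm7 and Rfc3 hold a further word at or after it, and these words are not shown.
E2f7, chr10:110745221-110745268, plus strand: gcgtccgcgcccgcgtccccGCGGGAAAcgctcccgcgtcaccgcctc
Uhrf1, chr17:56304108-56304155, plus strand: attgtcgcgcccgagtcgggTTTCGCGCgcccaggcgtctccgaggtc
Rfc3, chr5:151651209-151651238, minus strand: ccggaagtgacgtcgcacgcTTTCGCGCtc
Pola1, chrX:93632266-93632313, minus strand: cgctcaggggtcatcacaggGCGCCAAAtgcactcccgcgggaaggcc
Mcm5, chr8:75109336-75109387, plus strand: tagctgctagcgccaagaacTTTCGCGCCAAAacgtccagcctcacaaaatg
Mcm6, chr1:128359725-128359835, minus strand: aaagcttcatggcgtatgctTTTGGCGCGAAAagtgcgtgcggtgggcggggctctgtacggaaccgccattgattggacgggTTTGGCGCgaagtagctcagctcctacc
Mcm7, chr5:138172021-138172068, minus strand: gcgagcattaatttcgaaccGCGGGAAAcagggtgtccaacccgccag
Orc1, chr4:108579407-108579453, plus strand: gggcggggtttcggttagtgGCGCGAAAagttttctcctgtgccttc
Cdc6, chr11:98907993-98908040, plus strand: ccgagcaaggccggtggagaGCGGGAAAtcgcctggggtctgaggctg

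A gene was counted if any of its windows held a word. An E2F word was present in 14 of the 34 genes, or 41.2%, against 704 of 27025 genes in the table, or 2.6% (chromosome 18 was not used here). By role, the words were in 7 of 9 licensing genes, 4 of 10 fork and synthesis genes, 2 of 5 cyclin E and E2F genes, 1 of 3 chromatin genes, and in none of the 5 of nucleotide supply or the 2 of origin firing. In Mcm5 a pair of words overlaps, and Mcm6 carries 3 words, of which a pair overlaps. Genes with and without a word overlapped in the size of their difference after injury. The 14 genes with a word had a median difference of 1.91 for wild type and 1.35 for knockout, and the 20 without had 1.52 and 1.38. E2f7, at 4.27, and Rfc3, at 0.64, both hold one. A word is a match of letters and does not show that a factor binds there. Only exact matches within the windows were sought, so a gene without a word is not shown to lack a binding site. Whether E2F sites go with the size of the difference was not tested.

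Among the licensing genes, 10 of 11 were at least 2-fold higher after injury in wild type (14.6% of all genes). In knockout it was 8 of 10 (4.93%), and the medians were 1.99 and 1.37. Mcm3, a subunit of the ring-shaped MCM helicase, read -0.26 (wild type) and -0.14 (knockout) after sham, and 2.96 (wild type) and 2.03 (knockout) after injury. Both injured arrays stood far above both sham arrays, by 9.33-fold in wild type and 4.49-fold in knockout. Mcm4, another subunit, read 0.63, 0.31, 2.99 and 1.43 on the 4 arrays. Its wild type injured value stood apart from the rest, and its difference after injury was 2.36 in wild type and 1.12 in knockout. The 6 subunits of the ring did not move alike, which is seen in Mcm6, with values of 3.08, 1.95, 4.26 and 3.87. Here the knockout difference of 1.92 was the greater one, against 1.18 in wild type, and the sham arrays were 1.13 apart. Mcm5 read -0.44, -1.53, 1.35 and 0.32, which gave 1.79 and 1.86. Mcm2 gave 1.99 in wild type and 1.43 in knockout, and Mcm7 gave 2.04 and 1.76.

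The loaders of the helicase were also higher after injury. Cdc6, the ATPase that loads MCM together with Cdt1, read -5.21 and -4.23 on the sham arrays of wild type and knockout, and -2.58 and -3.09 on the injured arrays. The injured arrays were above the sham arrays in both genotypes, by 2.63 and 1.14, although the sham arrays already differed by 0.98. A second Cdc6 probe, dimmer on average and not well above background in knockout sham, gave 3.25 and at least 2.31. The probes differed in the sign of their sham difference, which was -1.32 as measured by the second. Cdt1 differed by 1.57 in wild type and 1.30 in knockout, and Orc6, a subunit of the origin recognition complex, by 1.34 and 0.73. Orc1, the largest subunit of that complex, was well above background in wild type injured alone, where it read -4.63, and was at least 1.83-fold higher there than in wild type sham. Geminin (Gmnn), which binds Cdt1 and blocks a second loading in the same cycle, read 2.20, 1.81, 3.19 and 2.46. Its differences of 0.99 and 0.65 were the smallest of this role in both genotypes.

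Origin firing genes were all higher after injury as measured, 3 of 4 by at least 2-fold in each genotype (14.6% and 4.93% of all genes). Gins1, a subunit of the GINS complex, read -1.54 (wild type) and -1.82 (knockout) after sham, and 0.94 (wild type) and 0.34 (knockout) after injury. Its differences of 2.48 and 2.16 placed both injured arrays above both sham arrays. A second Gins1 probe, above background on all 4 arrays, gave 1.67 and 1.23. The partner Gins2 differed by 0.98 and 0.64. Mcm10, which helps start the fork, gave 1.62 and 1.51. Cdc45, the helicase partner, read -4.77 in wild type sham, was not well above background in knockout sham, and read -3.62 and -5.20 in the injured arrays. The difference was 1.15 in wild type, and in knockout the bound was 0.41, so that knockout injured was at least 1.32-fold above knockout sham.

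Fork and synthesis genes had the smallest median differences, 1.04 in wild type and 0.90 in knockout. Of 11 genes 8 and 4 were at least 2-fold higher, against 14.6% and 4.93% of all genes. Pole, the catalytic subunit of the leading-strand polymerase epsilon, had the largest difference of this role in both genotypes, with -1.61 and -1.46 on the sham arrays of wild type and knockout, and 1.56 and 1.27 on the injured arrays. It was higher by 3.17 in wild type and 2.73 in knockout, with both injured arrays well clear of both sham arrays. Pcna, the sliding clamp, read 2.17, 1.59, 3.21 and 2.29, so that its knockout injured value lay only 0.12 above wild type sham. The clamp loader genes Rfc3, Rfc4 and Rfc5 gave 0.64, 1.004 and 1.29 in wild type and 0.32, 1.09 and 1.09 in knockout. Rfc3 had the smallest difference of all measured members of the list in both genotypes. The primase-polymerase alpha genes Pola1 and Prim1 were both near 2-fold, at 0.87 and 1.03 in wild type and 0.90 and 0.87 in knockout. Pold1, the catalytic subunit of the lagging-strand polymerase delta, gave 2.20 and 1.41, and DNA ligase Lig1 gave 1.58 and 0.91. The flap endonuclease Fen1 gave 0.92 and 0.53.

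Rpa2, a subunit of the protein that coats single-stranded DNA, had the largest difference in response between the genotypes among the 35 genes above background on all 4 arrays. Its probe at chr4:132333990-132334049 (mm9) read -2.04 (wild type) and -1.72 (knockout) after sham, and 0.66 (wild type) and -1.39 (knockout) after injury. The wild type injured array stood alone, and the difference after injury was 2.70 for wild type and 0.33 for knockout. A second Rpa2 probe was likewise at least 2-fold higher in wild type, and both probes were less than 2-fold higher in knockout.

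All 5 nucleotide supply genes were at least 2-fold higher in wild type (14.6% of all genes) and 3 of 5 in knockout (4.93%). Rrm2, the regulated small subunit of ribonucleotide reductase, read -2.28 and -2.05 on the sham arrays of wild type and knockout, and 1.39 and 0.16 on the injured arrays. It was higher by 12.7-fold in wild type and 4.63-fold in knockout, while the large subunit Rrm1 differed by 1.42 and 0.87 on the log2 scale. Thymidine kinase Tk1 read -0.03, -0.30, 2.01 and 1.90, and its injured arrays differed by less than the technical noise. Thymidylate synthase Tyms gave 1.25 and 1.33, and the dUTPase gene Dut gave 1.36 and 0.73.

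Cyclin E and E2F genes had among the largest differences, the median being 3.73 for wild type and 2.61 for knockout. Ccne1, whose product activates Cdk2 at the entry into S phase, read -1.77 (wild type) and -2.17 (knockout) after sham, and 1.997 (wild type) and 0.28 (knockout) after injury. By this probe it was higher by 13.6-fold in wild type and 5.45-fold in knockout. Its second probe gave 1.42 and -0.22, so the direction in knockout differed between the probes. Of the 13 genes with more than 1 probe above background, Ccne1 was the 1 whose probes disagreed in sign. Ccne2, the second cyclin E gene, was not well above background on either sham array and read -2.14 and -3.26 on the injured arrays of wild type and knockout. It was at least 10.3-fold higher after injury in wild type and at least 5.07-fold in knockout.

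The activating factor E2f1 read -4.24 and -4.59 on the sham arrays of wild type and knockout and -1.81 on both injured arrays. By this probe the differences after injury were 2.42 and 2.78. Its second probe, above background on all 4 arrays, read -2.41 and -3.51 on the injured arrays of wild type and knockout and gave 2.23 and 1.16, so that the probes disagreed on which genotype had the greater difference. E2f2, a related activator, gave 1.44 and 0.79. The atypical factors E2f7 and E2f8, which repress E2F targets late in S phase, were near or below background in sham kidneys. E2f8 read -5.06 in wild type sham and was not well above background in knockout sham, against -1.36 and -2.18 on the injured arrays. The injured arrays were thus above the sham arrays by 3.70 for wild type and by at least 3.43 for knockout. E2f7 was at least 15.4-fold higher in wild type and 8.45-fold higher in knockout.

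The 3 chromatin genes were at least 4-fold higher in wild type (4.98% of all genes), at 2.60 or more on the log2 scale. Uhrf1, which reads hemimethylated DNA and brings in the maintenance methyltransferase, read -1.33 and -1.66 on the sham arrays of wild type and knockout, and 2.82 and 1.02 on the injured arrays by its probe at chr17:56462657-56462716 (mm9). It was higher by 17.7-fold in wild type and 6.37-fold in knockout, and its second probe gave 4.34 and 2.74 on the log2 scale. Chaf1b, a subunit of chromatin assembly factor, read -1.29, -1.30, 2.74 and 1.51. Its sham arrays coincided, and the differences after injury were 4.03 and 2.81. The large subunit Chaf1a gave 2.60 and 1.92.

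**Figure D2:**
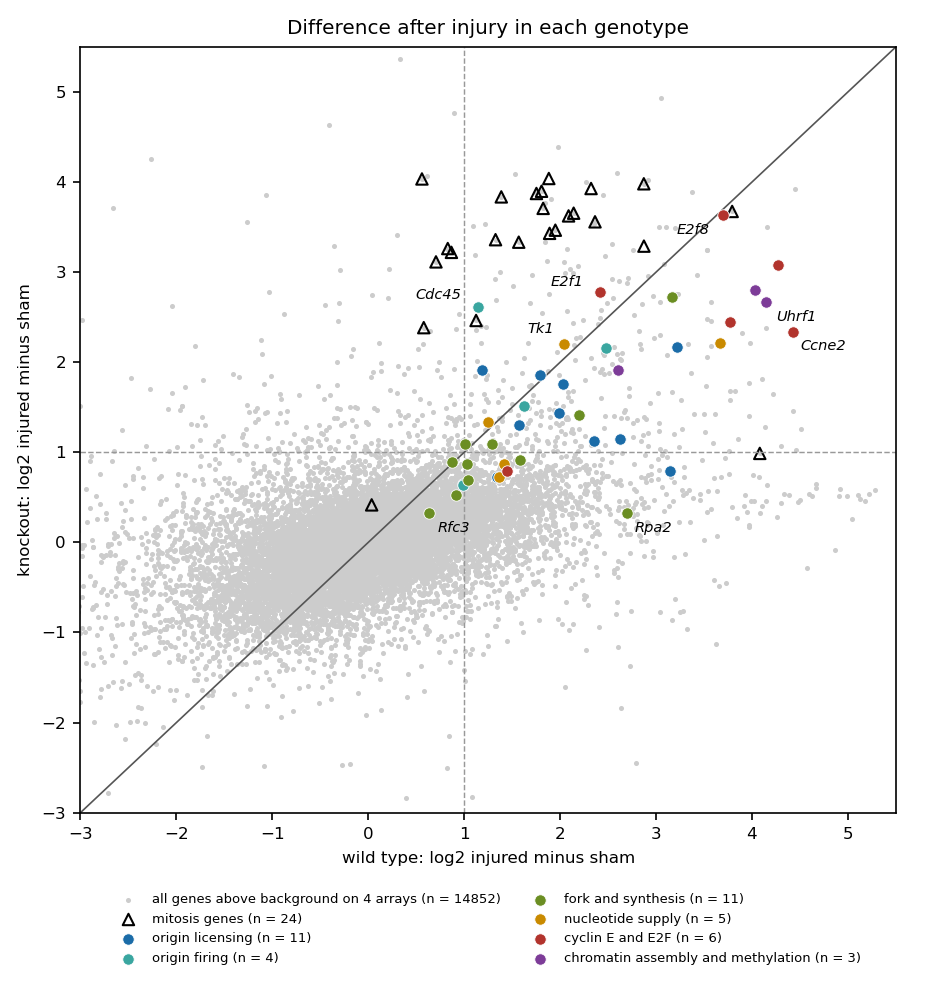
Log2 difference of injured minus sham in wild type (horizontal axis) and knockout (vertical axis), 1 array per group. Coloured points are the 40 genes by role, triangles the 24 mitosis genes and grey points the 14852 genes above background on all 4 arrays. Dim probes are plotted at their measured signal, and grey points outside the axes are not drawn. The diagonal marks equal differences and dashed lines mark 2-fold. Most replication genes lie below the diagonal and most mitosis genes above it.

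Across the 35 replication genes above background on all 4 arrays, the differences in the genotypes ran in parallel, with a Pearson r of 0.77 and a Spearman rho of 0.743. The same values over all 14852 such genes were 0.46 and 0.502. These are correlations across genes of the same arrays, which are not independent replicates. The response was smaller in knockout for 28 of the 35 genes, and greater for 7, against 49% of all genes: Mcm5, Mcm6, Rfc4, Pola1, Tyms, Tk1 and E2f1. The other probes of Tyms and E2f1 gave a smaller response in knockout, with differences in response of -0.07 and -0.94 for Tyms and -1.07 for E2f1. The response was smaller by at least 2-fold for 8 genes (9.35% of all genes), which were Mcm3, Mcm4, Cdc6, Rpa2, Rrm2, Ccne1, Uhrf1 and Chaf1b, and greater by that size for 0 (9.84%). Second probes of Cdc6 and Mcm3 put the difference in response at -0.17 and -0.66, short of 2-fold. The median of the difference in response was -0.39, against -0.02 over all genes.

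Between the injured kidneys the replication genes were lower in knockout. The median of knockout minus wild type was -0.73, against 0.04 over all 16589 genes, and 39 of 40 were lower, against 47.3% of all genes. E2f1 was the exception at 0.00 by its brightest probe, its second probe was at -1.10, and the first was lower as well with median scaling, with quantile normalization and in the authors' deposited table. At least 2-fold lower were 12 of 40 (8.17% of all genes), namely Mcm4, Mcm5, Orc6, Cdc45, Rfc3, Rpa2, Rrm2, Ccne1, Ccne2, Uhrf1, Chaf1a and Chaf1b, and 0 were higher by that size (11.1%). The ends of the range were Rpa2 at -2.05 and Uhrf1 at -1.80 on one side and Tk1 at -0.11 and E2f1 on the other. Between the sham kidneys the median was -0.32, with 29 of 38 genes lower in knockout, against 46.4% of all genes. Mcm5, Mcm6 and Cdc45 were at least 2-fold lower there (3.71% of all genes), though Cdc45 stood at -0.83 once knockout sham was set to its background bound, and 0 were at least 2-fold higher (5.43%). The genotype differences were measured across slides, as stated above, and as only knockout sham had the female pattern, sex cannot be told apart from genotype between the sham arrays either.

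Mitosis genes went the other way between the injured kidneys. The list of 24 measured genes had a median of 1.82 after injury in wild type and 3.51 in knockout, and 22 of 24 were higher in knockout injured than in wild type injured (52.7% of all genes), with a median of 1.12 against 0.04 over all genes. Top2a, the topoisomerase that untangles sister chromatids, read -3.50 (wild type) and -3.61 (knockout) after sham, and -0.63 (wild type) and 0.37 (knockout) after injury. Its highest value was thus in knockout injured, where Mcm4, Rrm2 and Uhrf1 fell short of wild type injured. The proliferation marker Mki67 read -0.07, -0.40, 1.88 and 3.07, and its second probe was also higher in knockout injured, by 1.85. Cdk1, the kinase that drives mitosis, gave 2.32 in wild type and at least 3.90 in knockout, and Cenph, a centromere gene with the largest mean difference of the list, gave 3.79 and 3.67. The ends of the list, named after their values were seen, were Ccnb2 at 2.71 and the kinetochore gene Ndc80 at -1.78 in knockout minus wild type injured. Over the 21 mitosis genes above background on all 4 arrays, the response was greater in knockout by at least 2-fold for 18 (9.84% of all genes), while it was for 0 of the 35 replication genes. This response also holds the sham difference, where 21 of 23 mitosis genes were lower in knockout (46.4% of all genes), with a median of -0.40. Between the injured arrays alone, 13 of 24 were at least 2-fold higher in knockout (11.1% of all genes). No test of the difference between the lists was made.

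**Figure D3:**
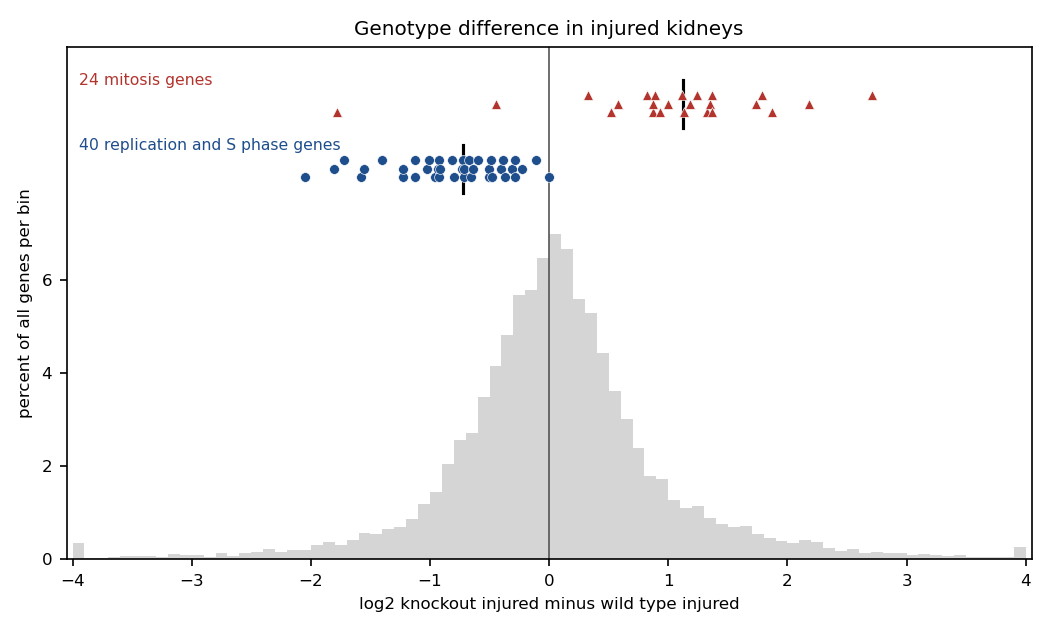
Log2 difference of knockout injured minus wild type injured, 1 array each. The grey histogram gives the percent of all 16589 genes per bin, with values beyond 4 in either direction placed in the last bin. Circles are the 40 replication and S phase genes and triangles the 24 mitosis genes, spread vertically to separate them, and black bars are the medians of -0.73 and 1.12.

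The promoter words of the lists differed too. The CHR word TTTGAA, which recruits the complexes of late cell cycle genes, was in a window of 15 of 22 mitosis genes, or 68.2%, of 5 of 34 replication genes, or 14.7%, and of 20.2% of all genes. The E2F words were in 1 of 22 mitosis genes, or 4.55%. The NF-Y word CCAAT was common in both, in 61.8% of the replication genes and 77.3% of the mitosis genes, against 41.1% of all genes.

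**Figure D4:**
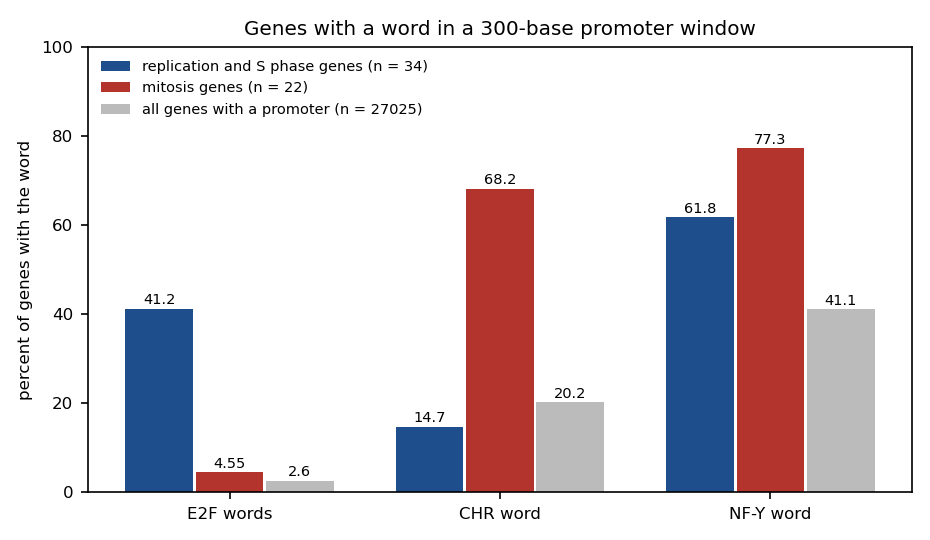
Percent of genes (vertical axis) with an E2F word, the CHR word or the NF-Y word on either strand of any of their promoter windows (250 bases before to 50 after a start), for 34 replication and S phase genes, 22 mitosis genes and 27025 genes in all. E2F words are in 41.2% of replication genes and the CHR word in 68.2% of mitosis genes.

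Other genes of replication gave a mixed picture. Of 35 further replication factors 16 were at least 2-fold higher and 1 lower after injury in wild type, and 11 and 0 in knockout, with medians of 0.76 and 0.49. Over all genes, for this and the next lists, 14.6% were higher and 15.1% lower in wild type, and 4.93% and 4.21% in knockout. Wdhd1, which tethers polymerase alpha to the fork, gave 3.58 and 2.67, and the clamp loader subunits Dscc1 and Chtf18 gave 3.43 and 2.97, and 3.09 in both. Second probes of Wdhd1 and Dscc1 gave smaller values, 1.99 and 1.82, and 2.09 and, as measured, 1.94. Thus by their brightest probes single factors outside the list of 40 had differences as large as those in it, while the median was smaller. Of 9 further chromatin genes of replication, 6 were at least 2-fold higher in wild type and 3 in knockout, with Hells at 2.71 and 1.63, Atad2 at 2.63 and 1.89 and Asf1b at 2.35 and 1.93. Among 14 further genes of nucleotide supply, 3 were at least 2-fold higher and 1 lower in wild type and 0 either way in knockout. Their medians were 0.07 and 0.04. Ctps gave 2.44 and 0.77, Dtymk 1.27 and 0.74 and Shmt1 -1.13 and -0.71. Second probes of Dtymk and Shmt1 gave smaller values, 0.19 and 0.27, and -0.30 and 0.17. Of 19 checkpoint and repair genes 13 were at least 2-fold higher in wild type and 11 in knockout, with 0 lower in each. The exonuclease Exo1 gave 3.23 and 2.76, and Rad54l gave at least 2.76 and 2.95. A second Rad54l probe, above background on all 4 arrays, gave 1.71 and 1.26, while one of Atad2 gave larger values, 3.40 and 2.61.

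A mixed list of regulators around E2F showed no common direction. It held cyclin D, CDK, RB family and CDK inhibitor genes, and also other E2F factors, their partners and further cell cycle regulators. Of its 24 measured genes 5 were at least 2-fold higher (14.6% of all genes) and 4 lower (15.1%) in wild type. In knockout it was 1 (4.93%) and 1 (4.21%), and the medians were 0.06 and 0.22. These counts lay near the shares of all genes. Cyclin D1 (Ccnd1) gave -0.15 and -0.55, and Rb1 gave -0.12 and -0.02, while the activator E2f3 gave 1.43 and 0.85. Cdkn1a, the CDK inhibitor p21, read -1.47 and -0.14 on the sham arrays of wild type and knockout, and 1.86 and -1.10 on the injured arrays. It was higher after injury in wild type by 3.33 and stood at -0.96 in knockout. Cdk6 gave 1.87 and 0.80, and the inhibitor gene Cdkn2b gave -1.83 and -1.01.

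Markers of kidney and other cell types moved with the same arrays, and in whole tissue fewer cells of a type and less RNA per cell cannot be told apart. Of 8 proximal tubule markers 6 were at least 2-fold lower after injury in wild type and 0 in knockout. Of all genes 15.1% and 4.21% were lower by that size. The summed level (log2) of the 8 stayed between 9.84 and 10.34 on the 4 arrays. That sum leans on Kap, the brightest on each array, which read 9.21, 8.76, 10.11 and 9.56. The median of the 8 read 6.26, 5.94, 4.36 and 6.18. The 2 brightest, Kap and Slc34a1, gave 0.89 and -3.88 in wild type and 0.79 and -0.00 in knockout. Of 6 endothelial markers 5 were at least 2-fold lower in wild type and 0 in knockout, with summed levels of 4.25 (wild type) and 4.56 (knockout) after sham, and 2.20 (wild type) and 4.10 (knockout) after injury, and Emcn at -2.26 and Kdr at -2.17 in wild type. The wild type injured array, where the replication genes were highest, thus had low endothelial markers.

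Leukocyte markers, measured for 9 genes, had summed levels of 2.05, 2.16, 1.67 and 2.72 in the same order, with Csf1r at -1.17 and Coro1a at -0.17 after injury in wild type and 0.25 and 1.36 in knockout. The 9 genes did not move alike in wild type, where Cd68 was higher by 2.80 and Itgam by 2.07 while Adgre1 stood at -2.83. Fibroblast markers had summed levels of 4.87, 4.61, 4.88 and 6.11. Dcn stood at -2.89 and Acta2 at 0.56 in wild type, and at 0.96 and -0.17 in knockout. Of the 6 markers 2 were at least 2-fold higher in each genotype (14.6% and 4.93% of all genes). These were Col1a1 and Col3a1, named after their values were seen. Dcn alone was lower by that size, and only in wild type. Col3a1 gave 1.85 in wild type and 3.77 in knockout. It was the brightest of the 6 on the knockout injured array, at 4.58. The summed levels of both lists were highest in knockout injured, where the mitosis genes were also highest and the replication genes were not. Erythroid markers had summed levels of 3.37, 5.93, 1.64 and 2.21, adipocyte markers 5.59, 3.72, 2.20 and 3.15, and urothelium markers 2.13, 0.57, -0.26 and 0.13. By summed level these 3 lists were lower on both injured arrays than on the sham array of the same genotype. In wild type Slc4a1 and Hba-a2 stood at -1.56 and -1.59, Fabp4 and Cidea at -2.33 and -6.54, and Krt5 and Upk1a at -1.18 and -1.09. In knockout the same pairs stood at -0.66 and -4.80, -0.55 and -0.42, and 0.08 and 0.06, so that Krt5 and Upk1a were not lower there. The 6 urothelium markers, as measured, had larger median differences, -3.98 in wild type and -1.12 in knockout. In wild type 6 of 6 were at least 2-fold lower (15.1% of all genes), and in knockout 3 of 6 (4.21%). The erythroid markers did not move alike, as knockout minus wild type between the sham arrays was 0.45 for Slc4a1 and 3.12 for Hba-a2. On the wild type injured array 3 of 4 erythroid, 3 of 5 adipocyte and 2 of 6 urothelium markers were well above background. The part of these cell types in the differences of the replication genes was not tested.

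A limma model with operation and genotype as additive terms was fitted to 16410 genes, 39 of them replication genes. The model has 1 residual degree of freedom, and a difference in response between the genotypes counts as error in it. For injury 0 of 39 passed an adjusted p of 0.05 (0% of all genes), and the smallest adjusted p from limma was 0.41. At an unadjusted p under 0.05, 36 of 39 were higher after injury (5.16% of all genes), all but Rfc3, Rpa2 and Fen1. E2f8 had the smallest p of the 39, with a difference of 3.67 (SE 0.26), an unadjusted limma p of 3.29e-04 and an adjusted p of 0.41. For genotype 0 passed the adjusted threshold (0% of all genes), while 6 were lower in knockout at an unadjusted p under 0.05 (2.12% of all genes), namely Mcm5, Cdt1, Cdc45, Rfc3, E2f8 and Chaf1a, and 0 were higher (3.29%). With 3 arrays both terms leave no residual degree of freedom, so fits without an array kept operation alone. Without the knockout injured array, which set 1 injured array against sham arrays of both genotypes and sex patterns, 18 of 39 passed the adjusted threshold for injury in limma (5.01% of all genes), and without the knockout sham array 16 of 39 had an unadjusted p under 0.05 (4.54% of all genes). With a normexp background correction fitted without feature or background flags, added after seeing the data, 26 of 39 passed the adjusted threshold for injury (6.51% of all genes).

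**Figure D5:**
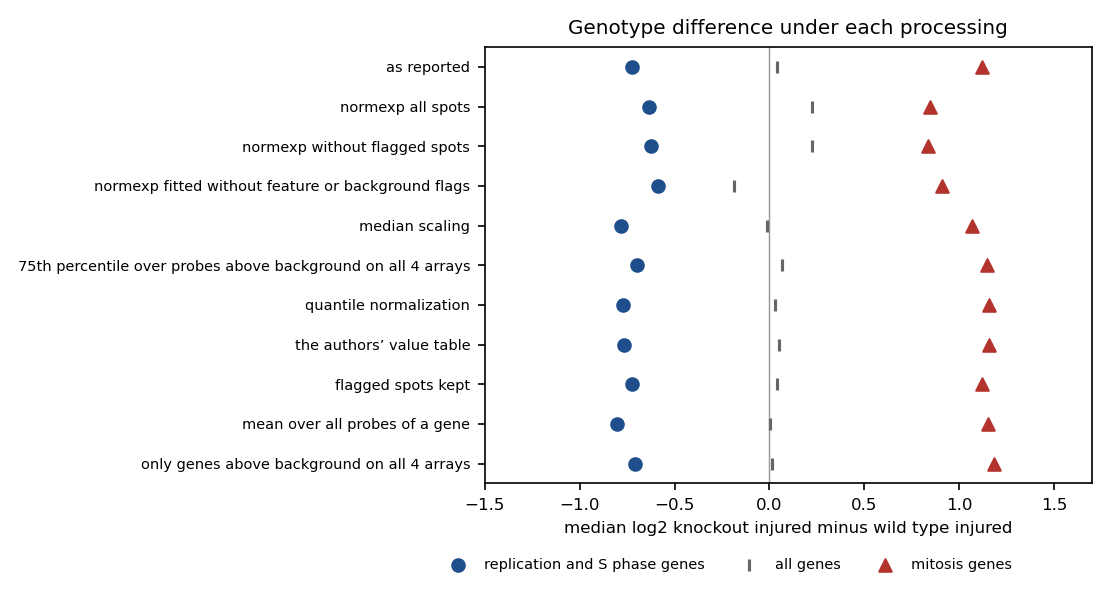
Median log2 difference of knockout injured minus wild type injured (horizontal axis) under the reported processing and 10 alternatives (vertical axis), for the replication and S phase genes (circles), the mitosis genes (triangles) and all genes measured (ticks). In each row the replication median lies below 0 and below the all-gene median, and the mitosis median above both.

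The genotype difference between the injured arrays kept its direction under the alternatives, but its size and the count of genes did not stay the same. With normexp on all spots, 30 of 40 replication genes were lower in knockout (37.7% of all genes) and the median was -0.63, while the all-gene median was 0.23. With normexp fitted without feature or background flags, 40 of 40 were lower and the median was -0.59, but the all-gene median was -0.19 and 62.4% of all genes were lower. Relative to that all-gene median 35 of 40 were lower. The mitosis median was between 0.84 and 1.18 under all of these.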

How the data were processed

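RNA of 4 mouse kidneys was measured on 1-colour Agilent arrays, 1 per group, with groups taken from the labels. The deposited scanner files hold intensity values of each spot, background-subtracted and detrended within the array by Agilent Feature Extraction. Its version is 10.7.3.1 in the file headers, while the submitters' processing notes name 9.1. A table deposited by the authors holds log2 values of the same arrays, whose scaling is not given in the sources used here, and served as an alternative. Its column medians were 5.93, 5.92, 5.91 and 5.92 (sham of wild type and knockout, then injured), and its rank correlation with the scanner intensities was above 0.999 on each array. Probe coordinates are those of mm9.

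Of 45018 spots per array 43379 were not controls. Spots with a feature outlier flag were left out, spots of a probe were averaged on the log2 scale, and the 75th percentile of each array was subtracted, which left 41142 probes. The 40 genes were matched by the gene name in the file (57 probes). Other probes were named through the RefSeq table of GRCm38.p6 by accession (27601), symbol (5575) or synonym (471), 875 carry the file's own name and 6563 have none. Each gene was represented by its brightest probe on average. A difference between 2 arrays was counted at 2-fold among genes well above background on either array. The value of a probe that did not pass as well above background was raised to the lowest signal above background there if it lay under that signal, and the fold is written "at least". With 1 array per group these differences carry no p-value and were not checked by replicates, and precision is limited by the number of arrays.

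The limma model (version 3.58.1, R 4.3.3) was fitted to genes above background on at least 2 arrays, with Benjamini-Hochberg adjustment over all 16410. Its p-values rest on these 4 samples alone. The error of each gene combines its 1 residual degree of freedom with a prior of 2.47 degrees of freedom, estimated over all genes fitted. The model was tested on simulated arrays of 16410 genes. For injury, of 250 genes for each size of log2 change, it recovered 0 changed by 1, 3 changed by 2, 73 changed by 4 and 131 changed by 6 at an adjusted p of 0.05. At an unadjusted p of 0.05 it recovered 151, 238, 248 and 247 of 250, and 5.13% of unchanged genes passed. In the simulation most genes were unchanged and each change was the same in both genotypes, so these rates need not hold for the data.

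The alternatives were normexp background correction in limma (offset 50), other scalings, probe choice, filters, flags and leaving out arrays. The 40 genes, the roles, the other lists and the promoter words were chosen with earlier results of these data known. All 40 are named. Of each other pathway list the 3 genes with the largest mean difference after injury are named, with Ccnd1, Cdkn1a, Rb1, E2f3, Top2a, Mki67 and Cdk1 always given, and of each marker list the 2 brightest. A gene that this rule names is not reported here. Promoter windows came from RefSeq (GRCm38.p6). Figures were drawn with matplotlib 3.10.9.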

Additional observations from a re-analysis of the deposited data

Results flagged for a closer look

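Cdkn1a moved in opposite directions after injury in the genotypes, at 3.33 in wild type and -0.96 in knockout, a difference of -4.29 on the log2 scale. Each group held 1 array, and the difference was not tested.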

How the results depend on the processing

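The difference after injury kept its direction in both genotypes for the 40 genes under the 9 settings of background, scaling, probe and flags that were run for single genes. At 4-fold, 19 genes were higher in wild type, 13 in knockout and 12 in both, against 4.98%, 1.69% and 0.779% of all genes. The wild type median of 1.89 became 1.41 with normexp on all spots, 1.40 when fitted without feature flags, 1.41 when fitted without feature or background flags (added after seeing the data), 1.62 over genes above background on all 4 arrays and 1.71 with values at the background bound. The knockout median of 1.41 became 1.24, 1.27 and 1.14 with these normexp settings and 0.96 against wild type sham. On the knockout injured array normexp fitted a mean background of -225.2 on all spots, -209.3 without feature flags and 0.00015 without feature or background flags. There 4 spots had a local background over 50 above their signal, and their part was not tested. Of all genes 14.6% were higher and 15.1% lower by 2-fold in wild type, against 13.2% and 8.11% with normexp on all spots and 13.3% and 8.13% with the added fit. In knockout these shares were 4.93% and 4.21%, 29.3% and 3.29%, and 2.37% and 1.23%. Median scaling moved the all-gene median in wild type to -0.12, and the added normexp fit moved it to 0.24, with 0.10 in knockout.

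At an unadjusted limma p under 0.05, the 36 genes for injury became 16 to 37 when 1 array was left out and genotype was dropped from the model, fewest without knockout sham (25 without wild type sham, 24 without wild type injured). The 6 genes for genotype became 0 to 10 when operation was dropped likewise, so that these differences also hold the injury difference, most without wild type sham, none without knockout sham or wild type injured, and 1 without knockout injured. At an adjusted p of 0.05 the count over all genes was 0 for injury as reported, 4310 with normexp on all spots, 4240 without feature flags, 1069 with the added fit and 822 without knockout injured. For genotype it was 0, 97, 101, 161 and 0, and 109 without wild type sham. The cause of these changes was not tested. No paired analysis was possible because each group held 1 array and the labels pair no samples. Probes of Orc1, Ccne2, E2f7, E2f8 and Cdc45 were limited by signal over background in sham kidneys.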
